A study of Mus musculus with 27 samples.

Results

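The genes followed here, 53 in all, were listed by name as cell cycle and proliferation genes, whose products copy DNA and carry out cell division. Of these, 52 have a probe set named with them alone and so are among the 19937 genes measured. Ccnb1, which encodes cyclin B1, has no such probe set here and gets no value. Where a gene has several probe sets, the one with the highest mean level stands for it. Of the 52 genes, 16 act in S phase and 36 in mitosis. The mitotic genes comprise 14 regulators (cyclins, kinases, ubiquitin ligase partners and the factor Foxm1), 13 genes of the spindle, its midzone and cytokinesis, and 9 genes of chromosomes and kinetochores.

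Hearts of C57Bl/6J mice, male littermates aged 10 to 12 weeks, were compared 3, 11 and 28 days after surgery. Transverse aortic constriction (TAC) narrows the aortic arch with a suture and so raises the pressure load on the heart, and sham surgery omits the constriction. The groups at each day are TAC JQ1, TAC vehicle and sham vehicle, with 3 arrays each and 27 in all. Injections of JQ1, an inhibitor of the BET bromodomain proteins, or of its DMSO vehicle began 1.5 days after surgery, and no sham hearts given JQ1 were analysed here. RNA came from a piece of 10 to 20 mg of heart tissue, which holds many cell types, so fewer dividing cells and less of an RNA per cell cannot be told apart. The labels do not say that the arrays come from separate animals, so the p-values measure the spread between these arrays, which may be partly technical.

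As background, cells enter S phase when E2F factors switch on the genes of nucleotide supply and of the replication fork, and they enter mitosis when cyclins A and B activate Cdk1. Many mitotic genes are held silent in resting cells by the DREAM complex, whose MuvB core binds a promoter element called CHR, and are switched on by the same core together with B-Myb and Foxm1. In the adult heart most cardiomyocytes have left the cell cycle, while fibroblasts, endothelial cells and macrophages can divide after injury or pressure overload. JQ1 keeps BET proteins away from acetylated chromatin and is known to lower the division of many cell types in culture.

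Promoter sequences of 45 of the 52 measured genes were taken from RefSeq (mouse build GRCm38.p6), each running from 250 bases before to 50 bases after the annotated start. The motifs were searched on both strands: TTTGAA, the letters of the CHR element, CCAAT, the box bound by NF-Y, and the E2F-type strings GCGGGAA and GGCGGGA, which overlap where both are present as 1 longer run. TTTGAA was found in 80.6% of 31 mitotic promoters and in 14.3% of 14 S-phase promoters, beside 18.1% of all 27025 promoters. The CCAAT box was found in 80.6% of the mitotic and 71.4% of the S-phase promoters, beside 37.9% of all. TTTGAA and CCAAT stood together in 74.2% of mitotic promoters, 14.3% of S-phase promoters and 7.12% of all. GCGGGAA was found in 35.7% of S-phase promoters, 3.23% of mitotic promoters and 4.66% of all. GGCGGGA was in 28.6% of S-phase, 25.8% of mitotic and 11.4% of all promoters. These are matches of letters, not binding sites. Shown 5′ to 3′ are the promoters of the 3 mitotic and 2 S-phase genes with the largest mean TAC differences among those with a promoter that could be shown, because the results turn on these genes, with all matches to the 4 motifs on either strand in capitals (a match on the other strand reads as its reverse complement). Mki67 lies at chr7:135716330-135716629, Top2a at chr11:99024140-99024439, Anln at chr9:22389157-22389456, Tyms at chr5:30073576-30073875 and Mcm6 at chr1:128359656-128359955, and each is on the minus strand.
Mki67: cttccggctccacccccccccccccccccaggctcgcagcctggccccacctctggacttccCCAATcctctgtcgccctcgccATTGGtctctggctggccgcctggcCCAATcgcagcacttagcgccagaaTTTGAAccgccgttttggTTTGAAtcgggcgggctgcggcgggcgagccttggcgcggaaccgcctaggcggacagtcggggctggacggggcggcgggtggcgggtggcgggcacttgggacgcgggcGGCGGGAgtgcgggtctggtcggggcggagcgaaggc
Top2a: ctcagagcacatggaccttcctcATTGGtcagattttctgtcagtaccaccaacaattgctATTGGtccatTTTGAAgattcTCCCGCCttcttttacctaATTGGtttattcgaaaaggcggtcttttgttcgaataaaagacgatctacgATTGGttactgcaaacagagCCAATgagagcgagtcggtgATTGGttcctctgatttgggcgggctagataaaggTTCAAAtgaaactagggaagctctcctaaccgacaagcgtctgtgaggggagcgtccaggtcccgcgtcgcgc
Anln: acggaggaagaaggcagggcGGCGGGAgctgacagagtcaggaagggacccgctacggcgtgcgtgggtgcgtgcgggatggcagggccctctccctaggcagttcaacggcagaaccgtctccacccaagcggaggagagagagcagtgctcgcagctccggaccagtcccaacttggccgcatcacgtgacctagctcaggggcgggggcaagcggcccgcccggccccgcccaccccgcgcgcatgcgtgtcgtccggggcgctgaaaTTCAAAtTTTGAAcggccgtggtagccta
Tyms: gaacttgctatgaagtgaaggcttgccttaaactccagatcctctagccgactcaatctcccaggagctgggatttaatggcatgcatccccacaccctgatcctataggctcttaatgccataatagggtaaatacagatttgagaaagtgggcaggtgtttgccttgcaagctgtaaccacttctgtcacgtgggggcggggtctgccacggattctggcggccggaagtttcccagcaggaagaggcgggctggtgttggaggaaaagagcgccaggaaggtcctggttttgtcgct
Mcm6: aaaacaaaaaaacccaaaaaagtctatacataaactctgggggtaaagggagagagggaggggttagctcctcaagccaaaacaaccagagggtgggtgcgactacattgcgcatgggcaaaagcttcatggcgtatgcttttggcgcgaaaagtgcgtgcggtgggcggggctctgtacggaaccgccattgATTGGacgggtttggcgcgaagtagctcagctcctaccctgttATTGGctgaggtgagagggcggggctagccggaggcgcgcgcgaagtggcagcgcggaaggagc
Mki67 carries TTTGAA 116 and 98 bases before the start, behind 3 CCAAT boxes. Top2a has 6 CCAAT boxes and 2 copies of TTTGAA, and Anln has 2 copies of TTTGAA just after its start and no CCAAT box. All 3 also hold GGCGGGA once. Mcm6 has 2 CCAAT boxes and no TTTGAA, and Tyms has no match to any of the 4 strings in this window.

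Levels are the log2 values as deposited, with array medians between 6.954 and 7.0434. The 52 genes had a median level of 6.745, against 7.341 over all genes. Hmmr was the dimmest of them, at percentile 8.733 of all genes, and Pcna the brightest, at percentile 95.53. The 8 cardiomyocyte markers, such as Myh6 and Tnnt2, lay between 12.5 and 13.9 on the log2 scale, at percentile 99.39 or above in signal. Signals of different probe sets are not measures of relative abundance, so these ranks describe the probes only. The 5 thymus markers lay between 4.204 and 6.73, at percentile 37.25 or below. One array stood apart in these genes. In TAC vehicle at day 3, the mean over the 36 mitotic genes of the log2 level above the mean of the 9 sham arrays was 1.278 in replicate 2, against 0.546 and 0.65 in replicates 1 and 3. The same mean over the 16 S-phase genes was 0.753 in replicate 2, against 0.087 and 0.305. Counts at day 3 are therefore given with and without that array.

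At day 3 after TAC most mitotic genes were called higher, as was a smaller share of the S-phase genes. These shares were not tested against each other. In TAC vehicle against sham vehicle, 36 of the 52 genes rose and none fell, with calls made at an adjusted p under 0.05 (limma, Benjamini-Hochberg over all genes). Over all genes 4.22% were called higher and 3.33% lower, 7.55% in either direction. In 38 of the 52 genes every TAC vehicle array lay above every sham array, which held for 9.7% of all genes. The calls took in 31 of 36 mitotic genes and 5 of 16 S-phase genes. The median log2 difference was 0.79 in the mitotic genes and 0.33 in the S-phase genes, against −0.03 over all genes. Without TAC vehicle replicate 2 there were 21 calls, 20 of them mitotic and 1 of S phase, beside 2.34% of all genes, and the median over the 52 genes was 0.441, against 0.617 with it. A fit to the 6 arrays compared alone called 15 of the 52, all mitotic, beside 1.25% of all genes.

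The gene with the largest rise at day 3 was Ccna2, which encodes cyclin A2, the partner of the cyclin-dependent kinases in late S phase and in early mitosis. Its log2 levels were 7.77, 9.08 and 8.003 in TAC vehicle, against 6.70, 6.60 and 6.59 in sham vehicle, a log2 difference of 1.66 ± 0.26 (adjusted p = 0.000402), or 3.15-fold, where ± gives the standard error from the model here and below. Mki67, which encodes the proliferation marker Ki-67 that coats mitotic chromosomes, had 7.93, 8.98 and 7.997 in TAC vehicle, against 6.72, 6.60 and 6.71 in sham vehicle, a difference of 1.62 ± 0.22 (adjusted p = 7.16e-05). Every TAC vehicle array lay above every sham array for both. Top2a, the topoisomerase that untangles sister chromosomes, had log2 levels of 7.20, 8.32 and 7.36 in TAC vehicle, against 6.18, 5.89 and 6.09 in sham vehicle, a difference of 1.57 ± 0.24 (adjusted p = 0.000308). Anln, which encodes the cytokinetic ring protein anillin, differed by 1.38 ± 0.20 (adjusted p = 0.000191), and Kif11, the motor that pushes spindle poles apart, by 1.30 ± 0.20 (adjusted p = 0.000237). Bub1, a kinase of the spindle checkpoint, differed by 1.28 ± 0.27 (adjusted p = 0.00389) and by 0.86 (adjusted p = 0.0529) without TAC vehicle replicate 2. All 13 spindle and cytokinesis genes rose, with a median of 1.03 on the log2 scale. Of the regulators 12 of 14 rose (median 0.72), with Aurka (0.20, adjusted p = 0.373) and Cdc20 (0.25, adjusted p = 0.238) short of the threshold. Of the chromosome and kinetochore genes 6 of 9 rose (median 0.67).

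The S-phase genes that rose at day 3 were Tyms, Mcm5, Mcm6, Rrm1 and E2f1. Tyms, the thymidylate synthase that makes dTMP, had log2 levels of 7.24, 7.93 and 7.68 in TAC vehicle, against 7.03, 6.91 and 6.87 in sham vehicle, a difference of 0.69 ± 0.13 (adjusted p = 0.00234). It was the S-phase gene whose call stood without TAC vehicle replicate 2. Mcm5, a subunit of the replicative helicase, had 7.48, 8.38 and 7.66 in TAC vehicle, against 7.32, 7.13 and 7.22 in sham vehicle, a difference of 0.62 ± 0.14 (adjusted p = 0.00878) that was 0.34 (adjusted p = 0.0801) without that array. Mcm6, another helicase subunit, differed by 0.58 ± 0.15 (adjusted p = 0.016) and by 0.32 (adjusted p = 0.19) without it. Rrm1, the large subunit of ribonucleotide reductase, differed by 0.49 ± 0.14 (adjusted p = 0.0318) and by 0.25 (adjusted p = 0.352). E2f1, an E2F activator, had log2 levels of 7.39, 7.85 and 7.49 in TAC vehicle, against 7.14, 7.18 and 7.08 in sham vehicle, a difference of 0.44 ± 0.11 (adjusted p = 0.013), and 0.30 (adjusted p = 0.17) without that array. For each of these genes, Tyms and E2f1 included, replicate 2 was the highest of the TAC vehicle arrays. Calls of Mcm6 and Rrm1 were also lost without sham replicate 2 (0.53, adjusted p = 0.0618, and 0.42, adjusted p = 0.132) and without sham replicate 3 (0.55, adjusted p = 0.0678, and 0.53, adjusted p = 0.0675), as was that of E2f1 without sham replicate 3 (0.41, adjusted p = 0.0625). All 16 S-phase differences were above 0, from 0.106 to 0.686.

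**Figure D1:**
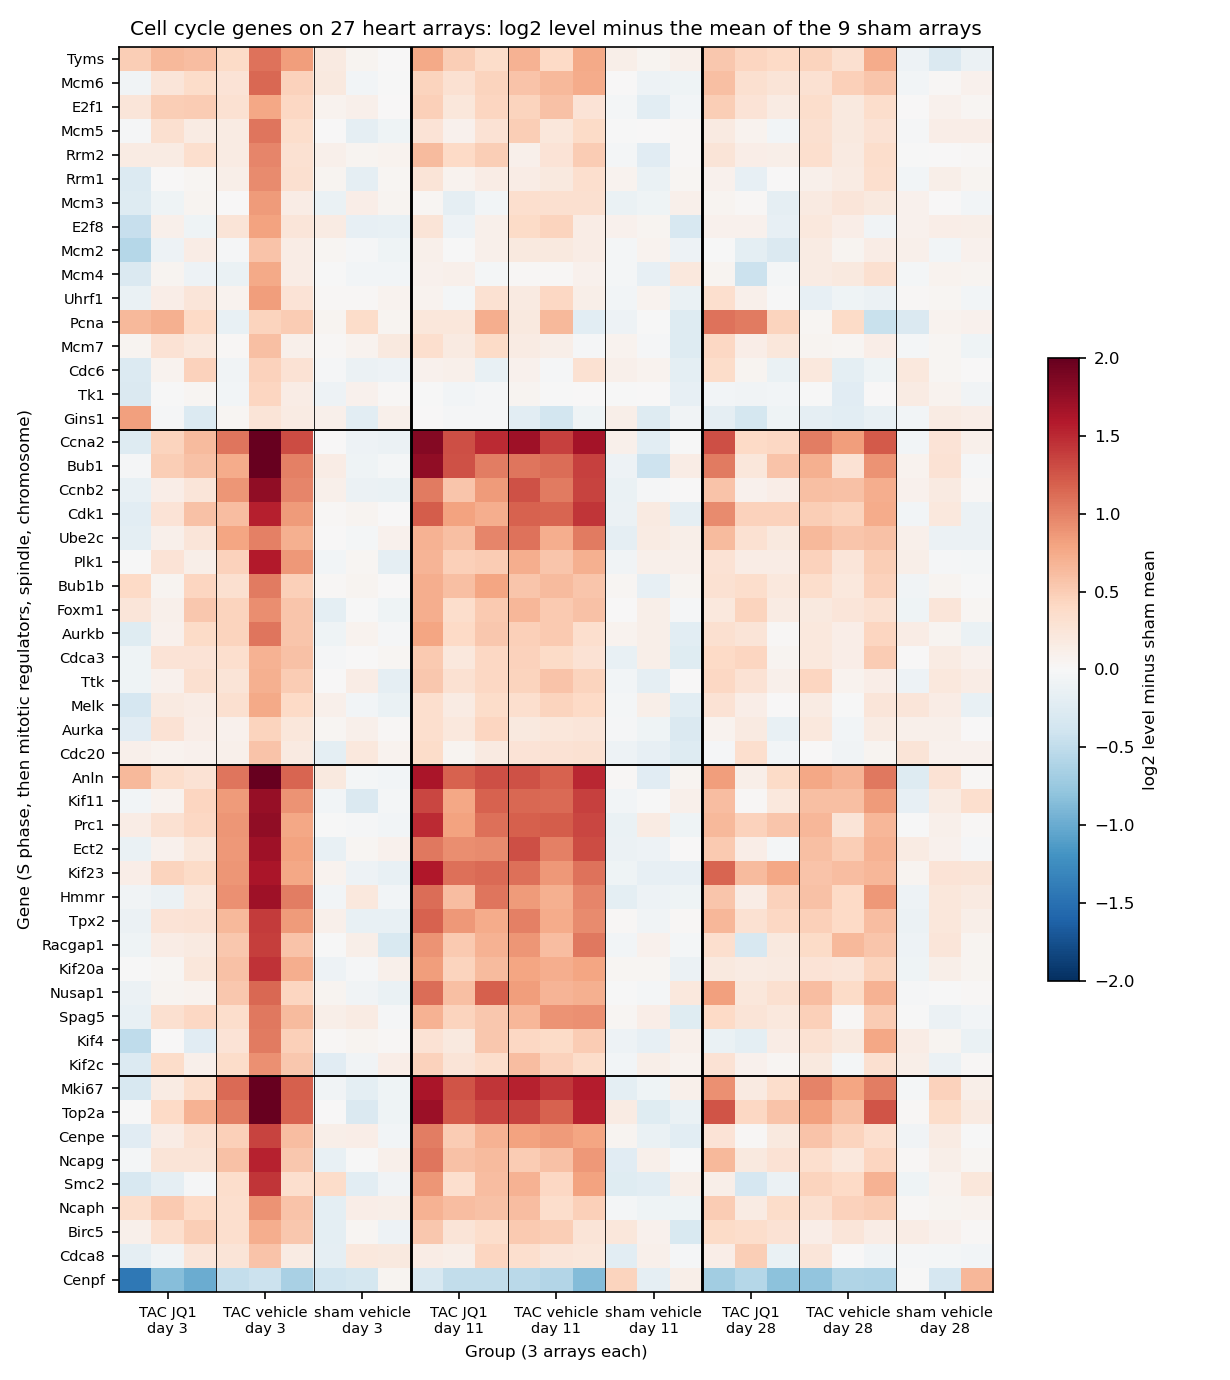
Each row is 1 of the 52 genes and each column 1 of the 27 arrays, in groups of 3, and the colour is the log2 level minus the mean of the 9 sham arrays. The mitotic rows are red in TAC vehicle at days 3 and 11 and in TAC JQ1 at day 11, TAC vehicle replicate 2 at day 3 is the reddest column, and Cenpf, the last row, is blue in most TAC columns.

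At day 11 after TAC 34 of 36 mitotic genes rose, with a median log2 difference of 0.77, and the 3 S-phase calls were E2f1, Mcm6 and Tyms. In TAC vehicle against sham vehicle 37 genes rose and 1 fell, beside 7.8% of all genes called higher and 7.73% lower, 15.5% in either direction. The mitotic mean score (the mean log2 level above sham, as above) ranged from 0.699 to 0.812 in TAC vehicle, against −0.043 to −0.037 in sham vehicle. Ccna2 had log2 levels of 8.39, 8.06 and 8.36 in TAC vehicle, against 6.80, 6.49 and 6.69 in sham vehicle, a difference of 1.61 ± 0.26 (adjusted p = 0.000145). Mki67 had 8.34, 8.21 and 8.36 in TAC vehicle, against 6.60, 6.71 and 6.89 in sham vehicle, a difference of 1.57 ± 0.22 (adjusted p = 1.9e-05). Cdk1, the kinase that drives entry into mitosis, had 8.21, 8.18 and 8.46 in TAC vehicle, against 6.90, 7.20 and 6.85 in sham vehicle, a difference of 1.30 ± 0.20 (adjusted p = 6.46e-05). Top2a differed by 1.43 ± 0.24 (adjusted p = 0.000219), Anln by 1.37 ± 0.20 (adjusted p = 5.05e-05) and Bub1 by 1.30 ± 0.27 (adjusted p = 0.00138). All 14 regulators and all 13 spindle genes rose, as did 7 of 9 chromosome and kinetochore genes. Leaving out single arrays kept 28 of the 38 calls in each case and gave 30 to 33 calls, beside 10.9% to 13.3% of all genes.

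Foxm1, Aurkb and the S-phase genes had smaller differences at day 11 than Ccna2 or Mki67. Foxm1, the factor that switches on late mitotic genes, had log2 levels of 6.88, 6.74 and 6.81 in TAC vehicle, against 6.23, 6.33 and 6.19 in sham vehicle, a difference of 0.56 ± 0.12 (adjusted p = 0.00218). Aurkb, the kinase of the chromosomal passenger complex, had 7.56, 7.61 and 7.42 in TAC vehicle, against 7.16, 7.20 and 6.88 in sham vehicle, a difference of 0.45 ± 0.15 (adjusted p = 0.0457), or 0.44 (adjusted p = 0.12) without TAC vehicle replicate 1 and above the threshold also without some other single arrays. Among S-phase genes Mcm6 had 7.66, 7.74 and 7.84 in TAC vehicle, against 7.101, 6.99 and 7.00 in sham vehicle, a difference of 0.72 ± 0.15 (adjusted p = 0.00134). E2f1 had 7.52, 7.66 and 7.35 in TAC vehicle, against 7.03, 6.87 and 7.02 in sham vehicle, a difference of 0.54 ± 0.11 (adjusted p = 0.00124), and Tyms 7.54, 7.26 and 7.61 in TAC vehicle, against 6.96, 6.90 and 6.96 in sham vehicle, a difference of 0.53 ± 0.13 (adjusted p = 0.00755). These 3 S-phase calls stood whichever array was left out. Mcm5 (0.36, adjusted p = 0.101) and Rrm2, the small subunit of ribonucleotide reductase (0.38, adjusted p = 0.0622), missed the threshold, with log2 levels of 7.81, 7.53 and 7.69 in TAC vehicle, against 7.30, 7.31 and 7.33 in sham vehicle for Mcm5 and of 6.93, 7.102 and 7.33 in TAC vehicle, against 6.79, 6.59 and 6.84 in sham vehicle for Rrm2.

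At day 28 fewer genes were called. In TAC vehicle against sham vehicle 10 rose and 1 fell, beside 8.13% of all genes higher and 6.98% lower (15.1% in either direction), with a median of 0.289 over the 52 genes and −0.053 over all genes. Ccna2 had log2 levels of 7.72, 7.54 and 7.92 in TAC vehicle, against 6.63, 6.96 and 6.79 in sham vehicle, a difference of 0.93 ± 0.26 (adjusted p = 0.0178), which was 0.83 (adjusted p = 0.0926) without TAC vehicle replicate 3 and 0.85 (adjusted p = 0.078) without sham replicate 1. Mki67 had 7.79, 7.58 and 7.81 in TAC vehicle, against 6.76, 7.26 and 6.92 in sham vehicle, a difference of 0.75 ± 0.22 (adjusted p = 0.019), lost on leaving out any of 4 arrays (up to adjusted p = 0.102 without sham replicate 1). Anln differed by 0.81 ± 0.20 (adjusted p = 0.00752) and by 0.68 (adjusted p = 0.0571) without sham replicate 1. The 2 calls that stood whichever array was left out were Tyms and Ube2c, the ubiquitin-conjugating enzyme of the anaphase-promoting complex. Tyms had 7.30, 7.17 and 7.60 in TAC vehicle, against 6.75, 6.57 and 6.74 in sham vehicle, a difference of 0.67 ± 0.13 (adjusted p = 0.0012). Ube2c had 7.43, 7.35 and 7.37 in TAC vehicle, against 6.89, 6.68 and 6.67 in sham vehicle, a difference of 0.64 ± 0.13 (adjusted p = 0.00137). Top2a differed by 0.70 ± 0.24 (adjusted p = 0.0564), short of the threshold. Nusap1, which bundles microtubules, differed by 0.56 ± 0.16 (adjusted p = 0.0197), or 0.54 (adjusted p = 0.063) without TAC vehicle replicate 1. A fit to the 6 arrays of day 28 alone called 28 of the 52 genes, beside 15.5% of all genes, and weighting arrays by their quality called 22, beside 21.5%.

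Over the 3 days Tyms and 9 mitotic genes were called in TAC at every day, and 23 mitotic genes on 2 days, Cenpf among them and called lower. Of all genes 7.55%, 15.5% and 15.1% were called in either direction at days 3, 11 and 28. How many of all genes were called on several days or on none was not counted. Of the S-phase genes 11 of 16 were called on no day, against 1 of 36 mitotic genes, Cdca8, a subunit of the chromosomal passenger complex (0.25, 0.31 and 0.10 at days 3, 11 and 28). Pcna, the sliding clamp of the replication fork, was among those 11, with log2 differences of 0.11, 0.34 and 0.03, as were Mcm2, Mcm3, Mcm4 and Mcm7 of the helicase, Rrm2, Tk1, Cdc6, Uhrf1, E2f8 and Gins1. For Pcna and Tk1 this holds at the probe set used. At their unused probe sets the day 3 differences were 0.36 (unadjusted p = 0.02) for Pcna and 0.52 (unadjusted p = 0.00242) for Tk1. Gins1, a fork subunit, was at 0.16, −0.15 and −0.26. Whether the effect of TAC differed between days was tested with a moderated F test: 0 of 52 genes passed, with 17 at an unadjusted p under 0.05, beside 1.31% of all genes called. The direct contrast of day 28 with day 11, added after the data were seen, likewise called 0 of 52, beside 0.145% of all genes, 0.0803% lower and 0.0652% higher. The smaller number of calls at day 28 is therefore no tested fall of the effect. Levels in sham hearts were not called different between days in any of the 52 (1 at an unadjusted p under 0.05, beside 0.0652% of all genes called).

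**Figure D2:**
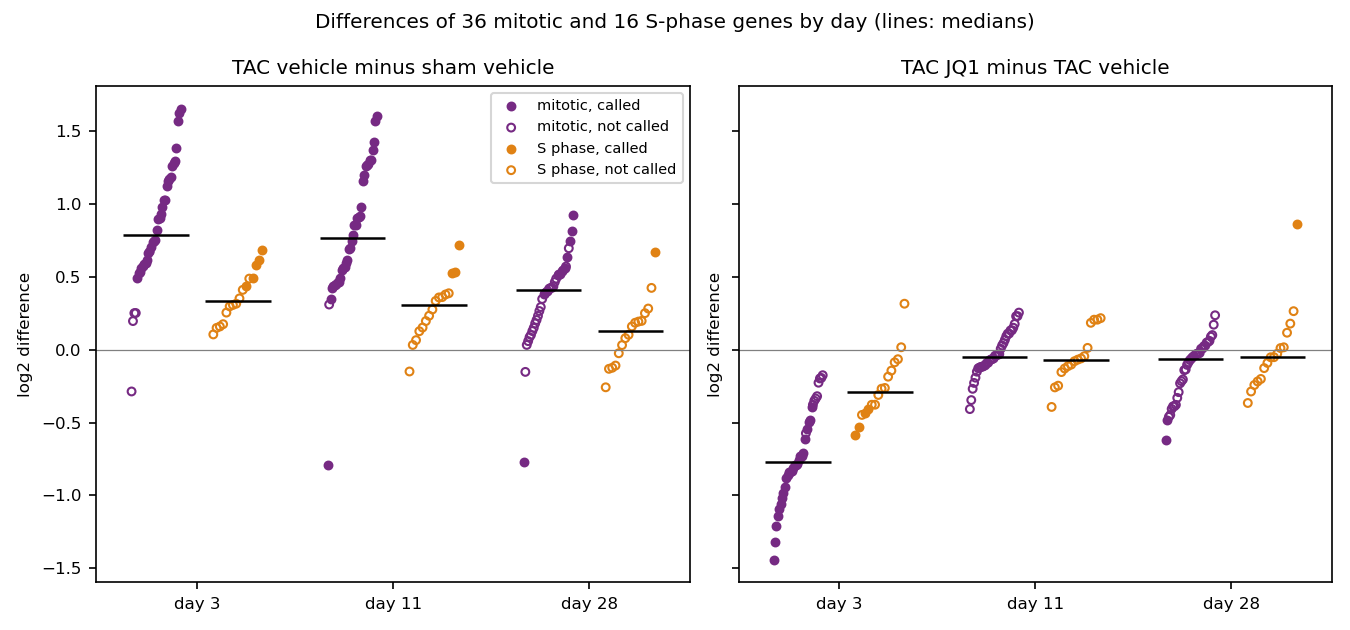
Log2 differences of the 36 mitotic and 16 S-phase genes at days 3, 11 and 28, for TAC vehicle minus sham vehicle (left) and TAC JQ1 minus TAC vehicle (right). Each point is 1 gene, filled where it was called, and black lines are medians: in the right panel the medians are −0.77 for mitotic and −0.29 for S-phase genes at day 3, and lie between −0.08 and 0 at days 11 and 28.

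Cenpf, a kinetochore and centromere protein of late G2 and mitosis, was the exception among the mitotic genes. Its log2 levels at day 11 were 7.16, 7.00 and 6.99 in TAC JQ1, against 6.94, 6.89 and 6.62 in TAC vehicle and 7.92, 7.31 and 7.61 in sham vehicle, so it fell by 0.79 in TAC vehicle (adjusted p = 0.0048). At day 28 they were 6.79, 6.91 and 6.67 in TAC JQ1, against 6.70, 6.89 and 6.86 in TAC vehicle and 7.47, 7.15 and 8.15 in sham vehicle, a log2 difference of −0.77 ± 0.19 (adjusted p = 0.00633) between TAC vehicle and sham vehicle. Without sham replicate 3 at day 28 it was −0.49 (adjusted p = 0.0652). At day 3 the values were 6.05, 6.63 and 6.49 in TAC JQ1, against 7.00, 7.06 and 6.84 in TAC vehicle and 7.08, 7.14 and 7.53 in sham vehicle. TAC vehicle lay wholly below sham there, as in 11.9% of all genes, but the difference of −0.29 ± 0.19 (adjusted p = 0.485) was not called. TAC JQ1 was below sham at day 3, with a difference of −0.86 ± 0.19 (adjusted p = 0.00233) on the log2 scale, and at day 28, with a difference of −0.80 ± 0.19 (adjusted p = 0.00347).

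Most mitotic genes were lower with JQ1 at day 3. In TAC JQ1 against TAC vehicle 31 of the 52 genes fell and none rose, beside 7.61% of all genes called lower and 4.28% higher, 11.9% in either direction. In 30 genes every TAC JQ1 array lay below every TAC vehicle array, as in 12% of all genes. The calls took in 27 of 36 mitotic genes (median log2 difference −0.77) and 4 of 16 S-phase genes (median −0.29), against a median of 0.02 over all genes. The TAC vehicle arrays serve both in this comparison and in that with sham, so a high TAC vehicle array adds to the TAC and JQ1 differences alike, and the 2 are given side by side without being related. Without TAC vehicle replicate 2 there were 16 calls, all mitotic, beside 7.45% of all genes. Without TAC JQ1 replicate 1, the lowest JQ1 array with a mitotic mean score of −0.104 against 0.165 and 0.262, there were 18, beside 7.07%. Of the 15 calls lost without TAC vehicle replicate 2, 13 were lost without TAC JQ1 replicate 1 too, those of Nusap1 and Smc2 excepted. The fit to the 6 arrays alone called 5, beside 2.12%. The 16 genes that kept the call whichever single array was left out were Ccna2, Ccnb2, Plk1, Ube2c, Tpx2, Kif11, Kif20a, Kif23, Kif4, Prc1, Hmmr, Anln, Ect2, Mki67, Top2a and Cenpe.

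Among the regulators Ccna2 had log2 levels at day 3 of 6.43, 7.14 and 7.33 in TAC JQ1, against 7.77, 9.08 and 8.003 in TAC vehicle and 6.70, 6.60 and 6.59 in sham vehicle. The JQ1 difference was −1.32 ± 0.26 (adjusted p = 0.00174), and the TAC JQ1 arrays lay below the TAC vehicle arrays while replicate 1 alone lay below sham. Ccnb2, a mitotic B-type cyclin, had 7.05, 7.33 and 7.44 in TAC JQ1, against 8.08, 8.98 and 8.19 in TAC vehicle and 7.30, 7.08 and 7.07 in sham vehicle, a JQ1 difference of −1.14 ± 0.17 (adjusted p = 0.000111). Cdk1, their kinase, had 6.82, 7.30 and 7.61 in TAC JQ1, against 7.64, 8.57 and 7.88 in TAC vehicle and 7.04, 7.08 and 7.03 in sham vehicle. Its difference of −0.79 ± 0.20 (adjusted p = 0.0104) was −0.52 (adjusted p = 0.101) without TAC vehicle replicate 2. Plk1, the polo-like kinase of mitotic entry and exit, had 6.90, 7.18 and 7.02 in TAC JQ1, against 7.36, 8.49 and 7.77 in TAC vehicle and 6.85, 6.94 and 6.73 in sham vehicle, a difference of −0.84 ± 0.16 (adjusted p = 0.0013). In these 4 genes no TAC JQ1 array reached the TAC vehicle range. Ube2c had 6.59, 6.89 and 7.04 in TAC JQ1, against 7.58, 7.80 and 7.51 in TAC vehicle and 6.79, 6.76 and 6.87 in sham vehicle, a difference of −0.79 ± 0.13 (adjusted p = 0.000297), with its TAC JQ1 arrays on both sides of the sham range. Bub1 had 5.44, 5.96 and 6.05 in TAC JQ1, against 6.20, 7.59 and 6.47 in TAC vehicle and 5.61, 5.38 and 5.43 in sham vehicle, a difference of −0.94 ± 0.27 (adjusted p = 0.0233), or −0.52 (adjusted p = 0.213) without TAC vehicle replicate 2. Aurkb had 6.84, 7.17 and 7.46 in TAC JQ1, against 7.52, 8.16 and 7.65 in TAC vehicle and 6.99, 7.15 and 7.06 in sham vehicle, a difference of −0.62 ± 0.15 (adjusted p = 0.00889), or −0.43 (adjusted p = 0.0874) without that array. The 2 groups did not overlap for Bub1 or Aurkb either. Foxm1 had 6.45, 6.31 and 6.76 in TAC JQ1, against 6.66, 7.14 and 6.77 in TAC vehicle and 6.02, 6.20 and 6.13 in sham vehicle, and its difference of −0.35 ± 0.12 (adjusted p = 0.0644) missed the threshold.

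Smaller calls among the regulators were those of Melk, a kinase high in dividing cells, and of Cdca3, an adaptor of mitotic entry. Melk had log2 levels at day 3 of 5.76, 6.27 and 6.24 in TAC JQ1, against 6.41, 6.85 and 6.49 in TAC vehicle, a difference of −0.50 ± 0.13 (adjusted p = 0.0159), and Cdca3 had 6.37, 6.74 and 6.74 in TAC JQ1, against 6.80, 7.17 and 7.06 in TAC vehicle, a difference of −0.39 ± 0.13 (adjusted p = 0.0453). Without TAC vehicle replicate 2 they were −0.36 (adjusted p = 0.125) and −0.31 (adjusted p = 0.214). The regulators not called were Aurka, Bub1b, Cdc20, Foxm1 and Ttk, with differences from −0.38 to −0.19.

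All 13 spindle and cytokinesis genes fell with JQ1 at day 3, with a median of −0.83 on the log2 scale. Hmmr, a protein of spindle poles also known as a hyaluronan receptor, had log2 levels of 4.49, 4.43 and 4.76 in TAC JQ1, against 5.47, 6.25 and 5.58 in TAC vehicle and 4.49, 4.77 and 4.49 in sham vehicle. The JQ1 difference was −1.21 ± 0.17 (adjusted p = 5.26e-05), with TAC JQ1 and sham values intermingled. Ect2, which starts the cleavage furrow, had 6.08, 6.30 and 6.44 in TAC JQ1, against 7.07, 7.91 and 7.02 in TAC vehicle and 6.07, 6.26 and 6.30 in sham vehicle, a difference of −1.06 ± 0.16 (adjusted p = 0.000155). Kif11 had 6.18, 6.30 and 6.66 in TAC JQ1, against 7.09, 7.98 and 7.13 in TAC vehicle and 6.18, 5.94 and 6.19 in sham vehicle, a difference of −1.02 ± 0.20 (adjusted p = 0.00118), and Tpx2, which activates Aurora A on the spindle, 6.02, 6.41 and 6.43 in TAC JQ1, against 6.78, 7.54 and 6.98 in TAC vehicle and 6.24, 5.99 and 5.98 in sham vehicle, a difference of −0.81 ± 0.15 (adjusted p = 0.00109). None of the TAC JQ1 arrays reached the TAC vehicle range in these genes. Anln had 6.59, 6.28 and 6.22 in TAC JQ1, against 6.99, 7.95 and 7.09 in TAC vehicle and 6.12, 5.89 and 5.87 in sham vehicle, a difference of −0.98 ± 0.20 (adjusted p = 0.00238), and its TAC JQ1 arrays stayed above the sham arrays. Prc1, which bundles midzone microtubules, had 6.09, 6.26 and 6.35 in TAC JQ1, against 6.83, 7.72 and 6.71 in TAC vehicle and 5.93, 5.92 and 5.89 in sham vehicle, a difference of −0.86 ± 0.18 (adjusted p = 0.00299). It too lay above sham on each TAC JQ1 array. Kif20a and Kif23 are the midzone motors. Kif20a had 6.41, 6.46 and 6.65 in TAC JQ1, against 7.01, 7.86 and 7.15 in TAC vehicle and 6.32, 6.39 and 6.52 in sham vehicle, a difference of −0.83 ± 0.14 (adjusted p = 0.00035), and Kif23 6.41, 6.72 and 6.67 in TAC JQ1, against 7.17, 7.92 and 7.05 in TAC vehicle and 6.35, 6.18 and 6.13 in sham vehicle, a difference of −0.78 ± 0.17 (adjusted p = 0.00324). Kif23 likewise stayed above the sham range. Over all genes 11.4% had every TAC JQ1 array above every sham array at that day.

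The other 5 spindle genes were Kif4, Racgap1, Nusap1, Kif2c and Spag5. Kif4, a chromosome-bound motor, had log2 levels at day 3 of 4.47, 4.98 and 4.74 in TAC JQ1, against 5.24, 6.02 and 5.46 in TAC vehicle, a difference of −0.84 ± 0.16 (adjusted p = 0.00134) that stood whichever array was left out. Racgap1, the partner of Kif23, had 6.26, 6.501 and 6.53 in TAC JQ1, against 6.90, 7.74 and 6.92 in TAC vehicle, a difference of −0.75 ± 0.19 (adjusted p = 0.0087), or −0.48 (adjusted p = 0.0873) without TAC vehicle replicate 2. Nusap1, a microtubule-bundling protein, had 5.94, 6.11 and 6.12 in TAC JQ1, against 6.59, 7.21 and 6.49 in TAC vehicle, a difference of −0.71 ± 0.16 (adjusted p = 0.00561), or −0.48 (adjusted p = 0.058) without it. The 2 groups did not overlap in these 3 genes. Kif2c, which shortens microtubules at kinetochores, had 5.51, 6.15 and 5.89 in TAC JQ1, against 6.15, 6.71 and 6.33 in TAC vehicle, a difference of −0.55 ± 0.14 (adjusted p = 0.0131), or −0.39 (adjusted p = 0.112). Spag5, a spindle protein, had 5.67, 6.14 and 6.23 in TAC JQ1, against 6.17, 6.87 and 6.46 in TAC vehicle, a difference of −0.48 ± 0.16 (adjusted p = 0.0449), or −0.30 (adjusted p = 0.314). In each of these genes the TAC vehicle replicate 2 array was the highest of the 6.

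Of the 9 chromosome and kinetochore genes 5 fell with JQ1 at day 3. Mki67 had log2 levels of 6.47, 6.96 and 7.15 in TAC JQ1, against 7.93, 8.98 and 7.997 in TAC vehicle and 6.72, 6.60 and 6.71 in sham vehicle. The JQ1 difference was −1.44 ± 0.22 (adjusted p = 0.000108), the largest of the 52 genes, a fold of 0.368. Top2a had 6.16, 6.56 and 6.86 in TAC JQ1, against 7.20, 8.32 and 7.36 in TAC vehicle and 6.18, 5.89 and 6.09 in sham vehicle, a difference of −1.09 ± 0.24 (adjusted p = 0.00429), and Cenpe, the kinetochore motor, 5.11, 5.49 and 5.64 in TAC JQ1, against 5.80, 6.68 and 5.95 in TAC vehicle and 5.46, 5.46 and 5.28 in sham vehicle, a difference of −0.73 ± 0.17 (adjusted p = 0.00476). For these 3 genes the TAC JQ1 and TAC vehicle arrays did not overlap. Smc2 and Ncapg are condensin subunits that compact chromosomes. Smc2 had 6.48, 6.62 and 6.77 in TAC JQ1, against 7.15, 8.23 and 7.13 in TAC vehicle, a difference of −0.88 ± 0.22 (adjusted p = 0.00866), or −0.52 (adjusted p = 0.0799) without TAC vehicle replicate 2. Ncapg had 5.54, 5.84 and 5.84 in TAC JQ1, against 6.17, 7.12 and 6.12 in TAC vehicle, a difference of −0.73 ± 0.19 (adjusted p = 0.0122), or −0.40 (adjusted p = 0.108). Ncaph (−0.17), Birc5 (−0.23), Cdca8 (−0.33) and Cenpf (−0.57) were not called.

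The S-phase genes that fell at day 3 were Rrm1, E2f8, Mcm2 and Mcm3, and none kept its call under all omissions of a single array. Rrm1 had log2 levels of 8.27, 8.55 and 8.58 in TAC JQ1, against 8.65, 9.49 and 8.86 in TAC vehicle and 8.59, 8.35 and 8.57 in sham vehicle, a JQ1 difference of −0.53 ± 0.14 (adjusted p = 0.0143), or −0.29 (adjusted p = 0.126) without TAC vehicle replicate 2. E2f8, a repressor of the E2F family, had 5.71, 6.27 and 6.09 in TAC JQ1, against 6.43, 6.97 and 6.42 in TAC vehicle and 6.33, 6.01 and 6.02 in sham vehicle, a difference of −0.58 ± 0.15 (adjusted p = 0.0133), or −0.40 (adjusted p = 0.118). TAC JQ1 and TAC vehicle did not overlap for Rrm1 and E2f8, and they did for Mcm2 and Mcm3. Mcm2 had 7.13, 7.60 and 7.84 in TAC JQ1, against 7.68, 8.26 and 7.85 in TAC vehicle and 7.73, 7.68 and 7.61 in sham vehicle, a difference of −0.41 ± 0.13 (adjusted p = 0.0482), or −0.24 (adjusted p = 0.338). Mcm3 had 6.23, 6.41 and 6.54 in TAC JQ1, against 6.500, 7.35 and 6.64 in TAC vehicle and 6.36, 6.63 and 6.55 in sham vehicle, a difference of −0.44 ± 0.14 (adjusted p = 0.0432), or −0.18 (adjusted p = 0.375). In each, at least 2 of the 3 TAC JQ1 values lay in or below the sham range. Tyms (−0.18, adjusted p = 0.476) and E2f1 (−0.09, adjusted p = 0.74) were not called. Mcm5 had 7.29, 7.63 and 7.47 and Rrm2 had 6.98, 6.98 and 7.15 in TAC JQ1, with differences of −0.38 ± 0.14 (adjusted p = 0.097) for Mcm5 and −0.27 ± 0.14 (adjusted p = 0.248) for Rrm2.

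**Figure D3:**
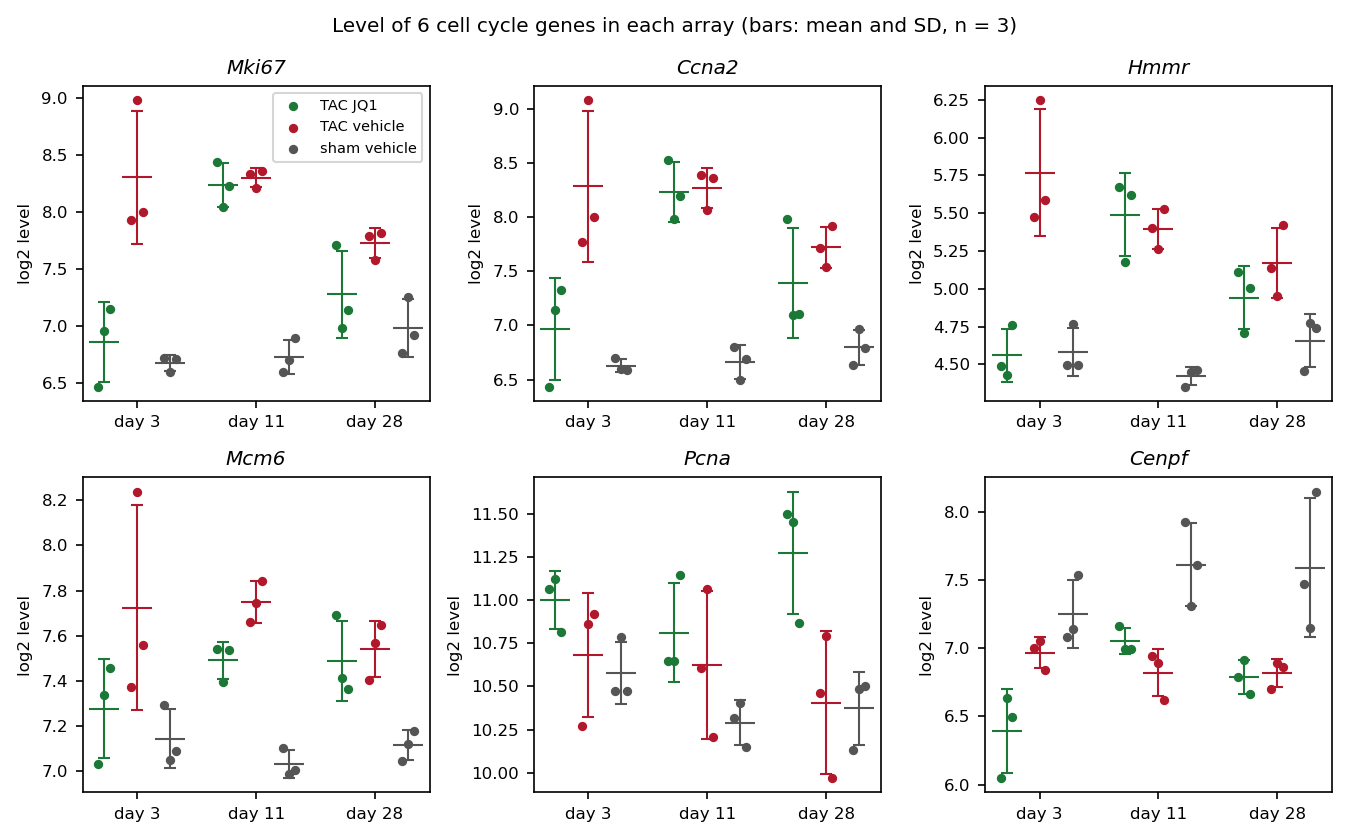
Log2 level of 6 genes on each array by day, with TAC JQ1 in green, TAC vehicle in red and sham vehicle in grey, bars for the mean and SD of 3 arrays, and an axis for each panel that does not start at 0. Mki67, Ccna2 and Hmmr lie low in TAC JQ1 at day 3 and together with TAC vehicle at day 11, Pcna is high in TAC JQ1 at day 28, and Cenpf is highest in sham hearts.

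At day 11 no member was called in TAC JQ1 against TAC vehicle by limma at the probe set used for it. Over all genes 7.52% were called higher and 8.43% lower, 16% in either direction, and 2 of the 52 had an unadjusted p under 0.05. Pcna at its unused probe set differed by 0.48 (unadjusted p = 0.00289). Array weights called 5 of the 52, beside 34.8% of all genes, and a fit to the 6 arrays alone called 1, beside 16.2%. The median log2 difference was −0.06, against −0.05 over all genes, and single differences ran from −0.41 for Ccnb2 to 0.26 for Kif23. Mki67 had log2 levels of 8.44, 8.05 and 8.23 in TAC JQ1, against 8.34, 8.21 and 8.36 in TAC vehicle, a difference of −0.06 with a 95% confidence interval of −0.51 to 0.38. Ccna2 had 8.53, 7.98 and 8.19 in TAC JQ1, against 8.39, 8.06 and 8.36 in TAC vehicle, a difference of −0.03 (−0.58 to 0.51). Hmmr had 5.67, 5.18 and 5.62 in TAC JQ1, against 5.40, 5.26 and 5.53 in TAC vehicle, a difference of 0.09 (−0.26 to 0.44). For these genes the arrays of the 2 groups were intermingled, and the intervals do not reach the differences of −1.44, −1.32 and −1.21 measured at day 3. Those day 3 values have errors of their own, so this is no test of a change between the days. The direct contrast of the 2 days, given below, called Hmmr and not Mki67 or Ccna2. Top2a had 7.88, 7.39 and 7.51 in TAC JQ1, against 7.52, 7.36 and 7.70 in TAC vehicle, a difference of 0.07 (−0.44 to 0.57). Cdk1 had 8.23, 7.83 and 7.75 in TAC JQ1, against 8.21, 8.18 and 8.46 in TAC vehicle, a difference of −0.35 (−0.76 to 0.07). The 2 genes with the smallest p were Mcm3 (−0.39, adjusted p = 0.058) and Ccnb2 (−0.41, adjusted p = 0.114), both with lower means in TAC JQ1.

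Some of the 13 spindle genes at day 11 are given here by array, and they do not stand for all 13. Anln had log2 levels of 7.56, 7.12 and 7.22 in TAC JQ1, against 7.20, 7.11 and 7.44 in TAC vehicle and 5.95, 5.71 and 5.99 in sham vehicle. Kif23 had 7.89, 7.38 and 7.42 in TAC JQ1, against 7.39, 7.16 and 7.37 in TAC vehicle and 6.19, 6.12 and 6.13 in sham vehicle. Kif11 had 7.57, 7.01 and 7.42 in TAC JQ1, against 7.39, 7.37 and 7.60 in TAC vehicle and 6.19, 6.23 and 6.34 in sham vehicle. Prc1 had 7.43, 6.75 and 7.05 in TAC JQ1, against 7.14, 7.15 and 7.29 in TAC vehicle and 5.82, 6.11 and 5.86 in sham vehicle. For Anln, Kif23 and Prc1 the highest array at that day was TAC JQ1 replicate 1. Ect2 and Spag5 lay lower in TAC JQ1. Ect2 had 7.26, 7.15 and 7.16 in TAC JQ1, against 7.50, 7.22 and 7.52 in TAC vehicle. Spag5 had 6.52, 6.26 and 6.36 in TAC JQ1, against 6.48, 6.72 and 6.74 in TAC vehicle. Among the regulators Bub1 had 7.24, 6.74 and 6.49 in TAC JQ1, against 6.53, 6.58 and 6.83 in TAC vehicle and 5.36, 5.05 and 5.62 in sham vehicle. Ube2c had 7.48, 7.40 and 7.76 in TAC JQ1, against 7.88, 7.51 and 7.83 in TAC vehicle and 6.60, 6.95 and 6.90 in sham vehicle. In Anln, Kif23, Kif11, Prc1, Bub1 and Ube2c every TAC JQ1 and every TAC vehicle array lay above every sham array. Over all genes this held for TAC JQ1 in 14.8% and for TAC vehicle in 16.8%. TAC JQ1 replicate 1 had the highest mitotic mean score of the 6 TAC arrays at that day, 0.908.

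Set against sham vehicle, TAC JQ1 hearts at day 11 had 36 of the 52 genes higher and none lower, beside 5.01% of all genes higher and 5.51% lower, 10.5% in either direction. The calls were 31 mitotic genes and the S-phase genes Rrm2, E2f1, Mcm6, Tyms and Mcm7, and the medians were 0.72 for mitotic and 0.16 for S-phase genes. Of the S-phase calls, those of Tyms, Mcm6 and Mcm7 were lost on leaving out certain single arrays (0.34, adjusted p = 0.197 for Tyms without TAC JQ1 replicate 1, 0.44, adjusted p = 0.151 for Mcm6 without the same array). Ccna2 differed by 1.57 ± 0.26 (adjusted p = 0.000364), Mki67 by 1.51 ± 0.22 (adjusted p = 7.51e-05), Top2a by 1.50 ± 0.24 (adjusted p = 0.000279), Bub1 by 1.48 ± 0.27 (adjusted p = 0.000737), Anln by 1.42 ± 0.20 (adjusted p = 8.37e-05) and Kif23 by 1.42 ± 0.17 (adjusted p = 1.03e-05). Rrm2 had 7.45, 7.21 and 7.32 in TAC JQ1, against 6.79, 6.59 and 6.84 in sham vehicle, a difference of 0.59 ± 0.14 (adjusted p = 0.00596). Leaving out single arrays gave 22 to 33 calls, beside 5.92% to 9.16% of all genes, and kept 21 in each case. At day 3 the same comparison called 5 genes higher and 1 lower, beside 6.94% of all genes higher and 10.7% lower, 17.6% in either direction. The 5 were Tyms (0.50 ± 0.13, adjusted p = 0.0104), Ncaph (0.40 ± 0.11, adjusted p = 0.0139), Birc5, the survivin of the passenger complex (0.39 ± 0.12, adjusted p = 0.0239), Foxm1 (0.39 ± 0.12, adjusted p = 0.028) and E2f1 (0.36 ± 0.11, adjusted p = 0.0252). Birc5 had log2 levels of 6.12, 6.34 and 6.49 in TAC JQ1, against 5.82, 6.05 and 5.91 in sham vehicle, and Ncaph had 6.78, 6.95 and 6.83 in TAC JQ1, against 6.23, 6.57 and 6.55 in sham vehicle. Tyms and Cenpf, the 1 lower gene, kept the call whichever array was left out. Without sham replicate 1 the other 4 stood at 0.29 (adjusted p = 0.106), 0.34 (adjusted p = 0.101), 0.34 (adjusted p = 0.109) and 0.36 (adjusted p = 0.0584), in the same order. Array weights called 20 of the 52 in this comparison, beside 31.7% of all genes.

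Whether the JQ1 difference itself depended on the day was tested with a moderated F test over the 3 days, and 3 genes passed, all mitotic, beside 1.07% of all genes called. Hmmr had an adjusted p of 0.0246, with JQ1 differences of −1.21, 0.09 and −0.23 at days 3, 11 and 28. Kif23 had an adjusted p of 0.0388, with −0.78, 0.26 and 0.24, and Mki67 an adjusted p of 0.0485, with −1.44, −0.06 and −0.45. A further 23 genes had an unadjusted p under 0.05, 26 in all. Hmmr stayed called whichever array was left out, and without TAC vehicle replicate 2 at day 3 Kif23 (adjusted p = 0.0541) and Mki67 (adjusted p = 0.0661) were above the threshold, as they were in 9 of 18 such omissions for Kif23 and 15 of 18 for Mki67. The direct contrast of day 11 with day 3, added after the data were seen, called Hmmr (1.30, adjusted p = 0.039), beside 0.0853% of all genes (0.0702% higher and 0.015% lower). Mki67 (1.38, adjusted p = 0.0719) and Kif23 (1.04, adjusted p = 0.0892) missed it. For most of the 31 genes called at day 3, the change in the JQ1 difference by day 11 was not past the threshold.

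At day 28 TAC JQ1 against TAC vehicle called 1 member higher and 2 lower, beside 7.16% of all genes higher and 12.4% lower, 19.6% in either direction. Pcna rose, with log2 levels of 11.50, 11.45 and 10.86 in TAC JQ1, against 10.46, 10.79 and 9.97 in TAC vehicle and 10.13, 10.49 and 10.504 in sham vehicle, a difference of 0.87 ± 0.22 (adjusted p = 0.00727), or 0.65 (adjusted p = 0.0626) without TAC vehicle replicate 3, its lowest array. The 3 TAC JQ1 arrays lay above every TAC vehicle array, which held for 18% of all genes. The mean score of the red cell markers (3 measured of 7 listed) at that day ranged from 0.669 to 0.863 in TAC JQ1, from −0.0897 to 0.304 in TAC vehicle and from −0.133 to 0.0559 in sham vehicle, and its part in the Pcna difference was not tested. Smc2 had 6.92, 6.46 and 6.68 in TAC JQ1, against 7.24, 7.19 and 7.49 in TAC vehicle and 6.71, 6.87 and 7.03 in sham vehicle, a difference of −0.62 ± 0.22 (adjusted p = 0.0456), lost on leaving out any of 5 arrays (up to adjusted p = 0.184 without TAC JQ1 replicate 2). Kif4 had 4.84, 4.78 and 5.13 in TAC JQ1, against 5.28, 5.17 and 5.75 in TAC vehicle and 5.12, 5.04 and 4.84 in sham vehicle, a difference of −0.48 ± 0.16 (adjusted p = 0.0403), or −0.31 (adjusted p = 0.234) without TAC vehicle replicate 3, and lost too without TAC JQ1 replicate 1 (−0.45, adjusted p = 0.111) or replicate 2 (−0.41, adjusted p = 0.152). Mki67 (−0.45, unadjusted p = 0.049, adjusted p = 0.143) and Top2a (−0.14, interval −0.64 to 0.37) were not called, with log2 levels of 7.71, 6.98 and 7.15 and of 7.43, 6.59 and 6.73 in TAC JQ1. In both TAC JQ1 replicate 1 was the highest of its group. Against sham vehicle 6 genes were higher and 1 lower, beside 7.36% and 12.6% of all genes, 19.9% in either direction. They were Pcna (0.90), Kif23 (0.66), Tyms (0.62), Cdk1 (0.61), Nusap1 (0.46) and Ube2c (0.42), with Cenpf the lower one. Without TAC JQ1 replicate 1 the calls of Kif23 (0.50, adjusted p = 0.0629), Cdk1 (0.45, adjusted p = 0.2), Nusap1 (0.28, adjusted p = 0.335) and Ube2c (0.29, adjusted p = 0.174) were lost, and those of Cdk1, Nusap1 and Ube2c were lost on leaving out some sham arrays as well.

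Mcm7, Mcm4, Cdc6, Uhrf1, E2f8 and Gins1 are further S-phase genes with no call in TAC. Mcm7, a helicase subunit, had log2 levels at day 11 of 7.89, 7.74 and 7.94 in TAC JQ1, against 7.71, 7.66 and 7.54 in TAC vehicle and 7.63, 7.53 and 7.30 in sham vehicle. Its difference between TAC JQ1 and sham vehicle, 0.37 ± 0.12 (adjusted p = 0.0413), was called, and was 0.35 (adjusted p = 0.132) without TAC JQ1 replicate 1. Mcm4 differed in TAC vehicle from sham by 0.30, 0.03 and 0.20 at days 3, 11 and 28. Cdc6, the loader of the helicase, differed by 0.31, 0.13 and −0.11, Uhrf1, which brings DNA methylation to new strands, by 0.35, 0.28 and −0.12, and E2f8 by 0.49, 0.39 and −0.02. Gins1 had 1 array apart, TAC JQ1 replicate 1 at day 3, with log2 levels of 7.15, 6.30 and 6.05 in TAC JQ1, against 6.37, 6.59 and 6.49 in TAC vehicle and 6.43, 6.11 and 6.43 in sham vehicle.

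Pcna and Tk1, the salvage thymidine kinase, have a second probe set each, and these bear on how far the brightest one can be read. The sources used here give no positions for probe sets. Whether each lies in the gene it names was therefore not checked. Pcna at its unused probe set differed between TAC JQ1 and TAC vehicle by 0.28, 0.48 and 0.57 on the log2 scale at days 3, 11 and 28, with unadjusted p of 0.0633, 0.00289 and 0.000628. At the used one the differences were 0.32, 0.19 and 0.87, so both were above 0 on each day. Between TAC JQ1 and sham vehicle the unused probe set of Pcna differed by 0.64, 0.63 and 0.82, with unadjusted p of 0.00021, 0.000228 and 1.03e-05. The used one differed there by 0.42, 0.52 and 0.90. Tk1 at its unused probe set was higher in TAC vehicle than in sham by 0.52 at day 3 (unadjusted p = 0.00242), against 0.18 (unadjusted p = 0.103) at the used one. Top2a has a second, dim probe set (mean level 3.33, against 6.86 for the one used). In TAC vehicle against sham it differed by 0.42, 0.22 and 0.42 at days 3, 11 and 28. Probe sets named with both Top2a and Hibadh (mean levels 6.19 and 7.14) were not used. At day 11 they differed by 0.14 and −0.02 (unadjusted p = 0.667 and 0.936), against 1.43 at the used set. At day 3 they differed by 0.64 and 0.67, and at day 28 by 0.78 and 0.74. The calls of Top2a rest on the used set.

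Markers of cells that can divide in the heart were called in TAC as well. Macrophage and monocyte markers (12, such as Cd68 and Csf1r) rose in TAC vehicle against sham in 5, 12 and 12 cases at days 3, 11 and 28, and fibroblast markers (10, such as Pdgfra and Col1a1) in 4, 8 and 10. Over all genes 4.22%, 7.8% and 8.13% were called higher in that comparison. In TAC JQ1 against TAC vehicle 7.61%, 8.43% and 12.4% of all genes were called lower. In TAC JQ1 against TAC vehicle the macrophage markers fell in 9, 10 and 8 of 12 cases, with medians of −0.62, −0.61 and −0.45 on the log2 scale. The fibroblast markers fell in 4, 5 and 6 of 10, with medians of −0.30, −0.54 and −0.61. At day 11, where no mitotic gene was called for JQ1, the macrophage mean score ranged from −0.103 to −0.027 in TAC JQ1, from 0.558 to 0.769 in TAC vehicle and from −0.096 to −0.027 in sham vehicle. The mitotic mean score there ranged from 0.569 to 0.908 in TAC JQ1, from 0.699 to 0.812 in TAC vehicle and from −0.043 to −0.037 in sham vehicle. At day 3 the macrophage score ranged from −0.15 to 0.082 in TAC JQ1, from 0.462 to 1.038 in TAC vehicle and from 0.066 to 0.36 in sham vehicle, and TAC vehicle replicate 2 was its highest array too. At day 28 it ranged from 0.08 to 0.442 in TAC JQ1, from 0.754 to 1.048 in TAC vehicle and from −0.246 to −0.137 in sham vehicle. The lowest log2 value in the data was 1.672, so the absence of a marker cannot be read from a value of 0. The part of these cell types in the cell cycle differences was not tested.

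Endothelial markers were called in TAC vehicle against sham in 0, 3 and 1 of 10 cases, all higher, and fell with JQ1 in 2, 2 and 6. Over all genes 7.55%, 15.5% and 15.1% were called in either direction for TAC and 11.9%, 16% and 19.6% for JQ1. Counts of 1 or 2 in the short lists here are therefore not read as results about a cell type. Cardiomyocyte markers were called lower in TAC vehicle in 0, 1 and 2 of 8 cases. None of the 5 thymus markers, tissue that lies near the aortic arch, was called in any comparison within a day. Smooth muscle and pericyte markers were called in TAC vehicle in 3, 3 and 1 of 8 cases, the last of them lower, and under JQ1 in 0, 2 and 3. Neutrophil markers and those of T, B and NK cells gave at most 1 call in a comparison. The markers of red cells and their precursors, Alas2, Tfrc and Klf1, had 0, 1 and 0 calls in TAC vehicle against sham and 0, 1 and 1 under JQ1, all higher. Alas2, the heme synthesis enzyme of red cell precursors, differed between TAC JQ1 and TAC vehicle by −0.10 ± 0.26 (adjusted p = 0.883), 1.09 ± 0.26 (adjusted p = 0.00472) and 1.22 ± 0.26 (adjusted p = 0.00137) on the log2 scale at days 3, 11 and 28. Tfrc, the transferrin receptor, rose in TAC vehicle at day 11 by 1.46 ± 0.37 (adjusted p = 0.00694). The mean score of the 3 genes at day 11 ranged from 0.301 to 0.814 in TAC JQ1, from 0.232 to 0.479 in TAC vehicle and from −0.161 to 0.0363 in sham vehicle. Tfrc was the 1 gene of the 3 called in TAC vehicle at that day, so the score there does not show a rise of all 3. The part of red cell precursors in the cell cycle differences was not tested.

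**Figure D4:**
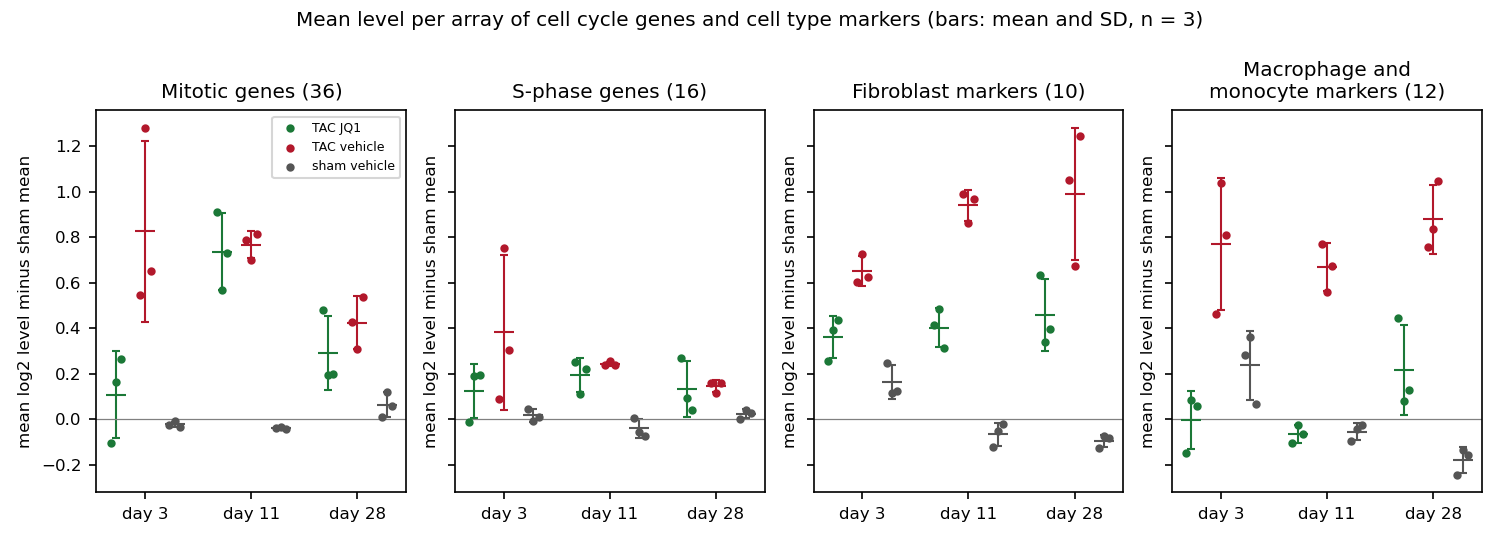
Mean log2 level above the mean of the 9 sham arrays for the 36 mitotic genes, the 16 S-phase genes, 10 fibroblast markers and 12 macrophage and monocyte markers, by day, with points for arrays (TAC JQ1 green, TAC vehicle red, sham vehicle grey) and bars for the mean and SD of 3 arrays. At day 11 TAC JQ1 overlaps TAC vehicle in the mitotic panel and lies below it in both marker panels.

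Other genes of the pathway, 121 measured of 129 listed, were read in the same way. In TAC vehicle against sham 4.22%, 7.8% and 8.13% of all genes were called higher and 3.33%, 7.73% and 6.98% lower at days 3, 11 and 28. With JQ1 4.28%, 7.52% and 7.16% of all genes were called higher and 7.61%, 8.43% and 12.4% lower. Of 27 further mitotic genes 18, 17 and 3 rose in TAC vehicle against sham at days 3, 11 and 28, and with JQ1 13, 1 and 2 fell. Cks2, a small subunit of Cdk1 complexes, rose by 1.52 ± 0.25 (adjusted p = 0.000534), 1.55 ± 0.25 (adjusted p = 0.000125) and 1.24 ± 0.25 (adjusted p = 0.00129) on the log2 scale. Of 19 genes of the centromere, kinetochore and condensin 8, 9 and 2 rose and 1, 1 and 0 fell, with 5, 0 and 1 lower under JQ1. Nuf2, of the kinetochore's Ndc80 complex, rose by 1.07 ± 0.18 (adjusted p = 0.000561) at day 3 and differed by −1.01 ± 0.18 (adjusted p = 0.000494) with JQ1. Of 29 genes of origin licensing and the fork 3, 2 and 1 rose in TAC and 1, 2 and 1 fell, which is not far from the shares over all genes. Dut, which clears dUTP, fell in TAC at day 3 (−0.46 ± 0.09, adjusted p = 0.00276) and day 11 (−0.40 ± 0.09, adjusted p = 0.00396). Of 13 genes of the S-phase checkpoint and repair 4, 2 and 0 rose.

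Of 9 G1 cyclins and their kinases, which act before S phase, 0, 3 and 0 rose in TAC at days 3, 11 and 28, beside 4.22%, 7.8% and 8.13% of all genes called higher and 3.33%, 7.73% and 6.98% lower. Cdk6, the kinase partner of D-type cyclins, fell with JQ1 at each day, with differences of −0.66 ± 0.11 (adjusted p = 0.000234), −0.55 ± 0.11 (adjusted p = 0.00104) and −0.63 ± 0.11 (adjusted p = 0.000164). Its mean log2 level at day 11 was 8.50 in TAC JQ1, against 9.04 in TAC vehicle and 8.59 in sham vehicle. Kif18a, a kinesin that aligns chromosomes and one of the further mitotic genes, also fell at each day (−0.62 ± 0.12, adjusted p = 0.00124, −0.47 ± 0.12, adjusted p = 0.00883, and −0.64 ± 0.12, adjusted p = 0.000497). Without TAC vehicle replicate 1 at day 11 it was −0.40 (adjusted p = 0.0605). Of the 17 pocket proteins, E2F factors and MuvB subunits 1, 2 and 1 rose in TAC and 2, 4 and 1 fell. Lin52, a MuvB subunit, fell in TAC at day 11, with a difference of −0.46 ± 0.06 (adjusted p = 1.16e-05), and rose with JQ1 by 0.34 ± 0.06 (adjusted p = 0.000456). The inhibitors of cyclin-dependent kinases gave 2, 1 and 1 calls higher and 0, 1 and 0 lower of 7. Cdkn1a is not named by a probe set of its own here and has no value.

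Within groups the members moved together from array to array. After each group's mean was taken off, the 630 pairs of mitotic genes had a median Pearson correlation of 0.587 over the 27 arrays, and 625 of them were above 0. The 120 pairs of S-phase genes had a median of 0.604 and the 576 mixed pairs one of 0.605. These pairs share the RNA, the labelling and the normalization of each array, and TAC vehicle replicate 2 at day 3 enters them all. The likeness of each gene to the mean of the other members was also taken over the 27 arrays with the group means left in. Differences between groups then count too. Ccna2 was the closest (0.982), then Top2a (0.97), Mki67 (0.969) and Tpx2 (0.969). With the group means taken off, Ccna2 was at 0.951. The least alike with the group means left in were Cenpf (−0.306), Gins1 (−0.118) and Pcna (0.162). With them taken off, Cenpf was at 0.16, Gins1 at −0.147 and Pcna at 0.0916. Among S-phase genes Mcm6 was the closest, at 0.921 with the group means left in and 0.905 with them taken off.

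Genes outside the list that were most like the mean of the members over the 27 arrays were Kif15 (0.945), Ckap2l (0.943), Tcf19 (0.93), Neil3 (0.93), H1f5 (0.929), Prr11 (0.928), Cep55 (0.928), H2bc3 (0.927), Dtl (0.923) and Iqgap3 (0.921), by Pearson correlation. By deviations from the group means they were H1f5 (0.935), H2bc3 (0.923), Kntc1 (0.921), Pclaf (0.915), Fignl1 (0.901), Tcf19 (0.892), Dnmt1 (0.892), Cep55 (0.888), Asf1b (0.884) and Prim1 (0.883). Tcf19, H1f5, H2bc3 and Cep55 are in both sets, and H1f5 and H2bc3 are histone genes. These correlations are descriptions over arrays and carry no test.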

How the data were processed

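Total RNA from pieces of heart was labelled and hybridised to Affymetrix whole-transcript arrays, per the labels' protocols, and the submitters' processing notes name limma. The deposited values are log2 signals per probe set, with array medians between 6.954 and 7.0434. The sources used here do not give the background correction, the normalization or a genome build, and values scaled to near-equal array medians cannot show a change shared by all genes.

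Of 34760 probe sets, 21640 name 1 gene, 1321 several and 11799 none, by the platform annotation, which can be old. For each of the 19937 genes the probe set with the highest mean level was used, without a filter on dim signals. The 9 group means were estimated in a single linear model with limma 3.58.1 in R 4.3.3, p-values were adjusted by Benjamini-Hochberg over all genes, and a gene was called at an adjusted p under 0.05. Standard errors and intervals come from that model, which has 18 residual and 4.9 prior degrees of freedom. Effects were compared between days with moderated F tests. The number of arrays, 3 in a group, limits the precision.

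The members and gene lists were chosen with earlier results of these data known. Genes named singly are those with the 6 largest called differences in each direction of a comparison, a few fixed members, members with a call for JQ1, and the 3 smallest p-values of each further list, of which some are left out here. The fit was tested on simulated data with known changes. Alternatives were quantile normalization, median centring, a filter on dim genes, array weights, fits to the compared groups alone, a replicate block and leaving out single arrays. Promoters and motifs were read from a RefSeq table (GRCm38.p6) with Python 3.11.15.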

Additional observations from a re-analysis of the deposited data

Results flagged for a closer look

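In 3 of the 52 genes, all mitotic, the JQ1 difference itself depended on the day, beside 1.07% of all genes called. The test was the moderated F test over the 3 within-day differences (limma, Benjamini-Hochberg over all genes). Hmmr had an adjusted p of 0.0246, Kif23 one of 0.0388 and Mki67 one of 0.0485. The log2 differences between TAC JQ1 and TAC vehicle at days 3, 11 and 28 were −1.21, 0.09 and −0.23 for Hmmr, −0.78, 0.26 and 0.24 for Kif23, and −1.44, −0.06 and −0.45 for Mki67. All 3 TAC JQ1 arrays lay below all 3 TAC vehicle arrays at day 3 in these genes, as in 12% of all genes. The same arrays entered the F test, so this adds no separate evidence. Hmmr kept its call whichever array was left out, while Kif23 lost it in 9 and Mki67 in 15 of 18 omissions, TAC vehicle replicate 2 at day 3 among them.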

How the results depend on the processing

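Quantile normalization and median centring moved no count of called members by more than 1.5 times. Leaving out the dimmest genes also removed members, Hmmr (percentile 8.733 of all genes) among them. Counts and medians of that fit cover fewer members, so they are not directly comparable with those over all members. In it TAC called 25 members at day 11 and JQ1 called 1, beside 25.6% and 26.2% of the genes tested. The TAC median at day 28 was 0.382 over the members left. Array weights called 22 members for TAC (21.5% of all genes) and 16 for TAC JQ1 against sham (25%) at day 28, 20 for TAC JQ1 against sham at day 3 (31.7%), 5 for JQ1 at day 11 (34.8%), and 11 (10.3%) and 12 (13.6%) in the F tests of the TAC and JQ1 differences by day. Fits to the compared arrays alone called 15 for TAC (1.25%), 5 for JQ1 (2.12%) and 2 for TAC JQ1 against sham (5.91%) at day 3, 1 for JQ1 at day 11 (16.2%) and 28 for TAC at day 28 (15.5%). The contrast of JQ1 at day 11 with day 3, added after the data were seen, called 1 (0.0853%).

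Leaving out single arrays at day 3 gave 21 to 42 calls for TAC (2.34% to 9.09% of all genes), 16 to 39 for JQ1 (7.07% to 13.7%) and 2 to 6 for TAC JQ1 against sham (13% to 18.2%). At day 11 it gave 22 to 33 for TAC JQ1 against sham (5.92% to 9.16%). At day 28 it gave 3 to 12 for TAC (9% to 14.1%), 0 to 6 for JQ1 (13.6% to 22.6%) and 3 to 8 for TAC JQ1 against sham (14.8% to 18.8%). In the F tests it gave 0 to 1 for TAC (0.482% to 2.03%) and 1 to 6 for JQ1 (0.186% to 2.19%). Of 171 values of 78 named genes, 98 lost their call at least once and 0 reversed. The causes were not tested.

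Samples share only a number: over 27 same-numbered pairs the correlation of deviations ran from −0.462 to 0.5, and the own number correlated best in 8. With the replicate block the JQ1 F test called 1 member (0.487% of all genes), and other counts stayed within 1.5 times.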
